A study of Mus musculus with 94 samples.

Results

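The genes described here encode the parts of the Wnt signalling system that lie outside the cell, at its surface and in its nucleus. They are the secreted Wnt ligands, the Frizzled receptors (Fzd) with the co-receptors Lrp5 and Lrp6, the secreted inhibitors (Sfrp, Dkk and Wif1), the R-spondins (Rspo), β-catenin (Ctnnb1) with the nuclear factors Tcf7, Tcf7l1, Tcf7l2 and Lef1, and the feedback gene Axin2. Members were chosen by gene symbol, with Sfrp5 left aside, and by a mean of at least 0.2 CPM (counts per library, scaled so that libraries of different depth compare) over the 47 libraries of a fat depot. Of 49 such symbols, 42 met this minimum, among 20411 symbols in the count tables. In epididymal white adipose tissue (eWAT) 40 members met it and in inguinal white adipose tissue (iWAT) 41, with 39 in both. Wnt3, Wnt3a, Wnt7a, Wnt8a, Rspo4, Dkk1 and Dkk4 lay below it in both depots, Wnt7b in iWAT, and Wnt1 and Wnt16 in eWAT. Just inside the minimum in eWAT stood Wnt10a at a mean of 0.202 CPM, and just outside it Wnt1 at 0.196 CPM.

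A canonical Wnt binds a Frizzled together with Lrp5 or Lrp6, which halts the breakdown of β-catenin, and β-catenin then joins Tcf and Lef proteins on DNA to switch on targets such as Axin2. Axin2 itself is a scaffold of the complex that breaks β-catenin down, so its transcript is widely used as a readout of the pathway. Sfrp proteins and Wif1 bind Wnts, Dkk proteins block Lrp5 and Lrp6, and R-spondins keep Frizzleds on the cell surface, while Wnt5a and Wnt11 mostly act without β-catenin. In fat, canonical Wnts such as Wnt10b are known to hold preadipocytes back from becoming adipocytes.

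Poly(A) RNA of both depots was sequenced from 47 male C57BL/6JBomTac mice, which gave 94 libraries in 8 groups per depot. The obese group held 5 mice fed a high-fat diet for 18 weeks from the age of 10 weeks. The 3 regression groups, of 6 mice each, had the same start and were then switched to the low-fat food, which they ate for 2, 6 or 12 weeks. For each of these 4 times a lean group of 6 mice of the same age (28, 30, 34 and 40 weeks) had stayed on the low-fat food throughout. Mice were kept several to a cage, and the sources used here do not say which mice shared one, so p-values measure the spread between single mice.

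The eWAT libraries held 1.32 to 25.9 M counts (median 8.53 M) and the iWAT libraries 6.27 to 34.3 M (median 9.65 M). All 10 adipocyte markers were found in both depots, and their summed level per library lay between 16200 and 48800 CPM in eWAT and between 16600 and 43900 CPM in iWAT. Some libraries also carried signal of neighbouring tissue. In 5 eWAT libraries the markers of epididymal duct and vas deferens summed to at least 100 CPM (204 to 5750 CPM, TMM-scaled within the depot), and in 7 iWAT libraries B cell markers of lymph node did so (176 to 1190 CPM on the same scale). Skeletal muscle markers reached at least 1000 CPM in 21 iWAT libraries, with 4 of them at 10800 to 42100 CPM on that scale, all at 6 or 12 weeks, and motile cilium (efferent duct) markers reached 392.2 CPM in eWAT. Without the 4 libraries of high muscle signal, a setting chosen after seeing the data, 0 members were called in iWAT at 6 and at 12 weeks (0 and 0 with them). That setting called 13 members in obese iWAT (13 with them) and 10 at 2 weeks (9). Of all 14771 genes it called 44 and 2 at 6 and 12 weeks, 4271 in obesity and 2618 at 2 weeks. It removed no library of the obesity or 2-week times, so it could not show whether muscle signal bore on those calls. When scaled over all libraries, muscle markers reached 6500 CPM in lean iWAT of the obesity time and 6400 CPM in that of 2 weeks. Calls lost without the libraries with duct or B cell signal, also a setting chosen after seeing the data, are named beside the result. In bulk tissue, fewer cells of a type and less RNA per cell cannot be told apart. The strand setting of the counting was not stated, so reads of overlapping or antisense genes cannot be told apart either.

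Levels of different members were compared per kilobase of exon in the 24 lean mice. Among the receptors Fzd4, which also binds the non-Wnt ligand norrin, stood highest in both depots, at 59.8 CPM per kb in eWAT and 47.2 in iWAT. In eWAT Fzd1 followed at 26.7 CPM per kb, Fzd7 at 13.7 and Lrp6 at 11.6. In iWAT Fzd1 followed at 28.5, Lrp6 at 13.6 and Fzd7 at 13.5 CPM per kb. The order of the ligands differed more between the depots. In eWAT Wnt2b led at 9.56 CPM per kb, then Wnt5a at 6.97 and Wnt9a at 4.91. In iWAT Wnt5a led at 6.51, then Wnt2 at 4.40 and Wnt10b at 3.76. Sfrp2 was the highest inhibitor in both, at 20.3 CPM per kb in eWAT and 37.3 in iWAT. Ctnnb1 exceeded every other member, at 86.1 CPM per kb in eWAT and 81.4 in iWAT.

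The first comparison asked how the depots differ in lean mice, taking the difference within each mouse over both depots. Rspo1, an R-spondin, averaged 64.1 ± 19.0 CPM in lean eWAT and 2.401 ± 0.72 CPM in lean iWAT (SD, n = 24 mice), a log2 fold change of 4.70 ± 0.11 (SE, adjusted p = 4.3e-33). The ligand Wnt2b averaged 40.2 ± 11 CPM in eWAT and 3.10 ± 0.726 CPM in iWAT (3.66 ± 0.13, adjusted p = 9.92e-27). The ligand Wnt2 ran the other way, at 0.385 CPM in eWAT and 9.93 CPM in iWAT (-4.59 ± 0.19, adjusted p = 4.8e-24). These adjusted p-values, and all others of genes below, come from edgeR's two-sided quasi-likelihood test with Benjamini-Hochberg adjustment over all genes tested, and a gene was called at an adjusted p under 0.05.

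By that test 20 of 42 members were higher and 11 lower in lean eWAT, that is 73.8% of the members. Of all 15585 genes 58.2% were called, 27.7% higher and 30.5% lower. The median log2 fold change was 0.17 over the members and -0.02 over all genes. Of the 15 ligands 7 were higher and 5 lower. Wnt7b, a ligand of duct and lung epithelium, had 763 counts over the lean eWAT libraries and 0 over the lean iWAT libraries, at least 268-fold higher when iWAT is set to a floor of 3 counts over the group. Without the lean eWAT libraries with epididymal duct and vas deferens signal it had 240 counts in the other 20, at least 102-fold higher by the same floor. Motile cilium (efferent duct) markers played no part in that choice, so efferent duct signal was left in. In the lean eWAT of 12 weeks these markers summed to 46.6 to 354 CPM per mouse. Wnt16 had 3 counts in eWAT and 147 in iWAT, a ratio of 0.0215 after scaling (exact 95% interval 0.00438 to 0.064, which covers counting error only). Wnt4 (2.12), Wnt9b (2.07), Wnt5b (1.26), Wnt8b (0.88) and Wnt9a (0.65) were higher in eWAT on the log2 scale. Wnt1 (-1.79), Wnt10b (-1.62) and Wnt11 (-0.65) were lower. Among the 12 receptors 7 were higher, led by Fzd6 at 33.8 CPM in eWAT and 15.3 CPM in iWAT (1.03 ± 0.12) and Fzd5 (0.72 ± 0.06), and 2 lower, Fzd9 (-1.09) and Lrp6 (-0.22 ± 0.04). Lrp5 was higher (0.49), so the co-receptors Lrp5 and Lrp6 differed in opposite directions between the depots.

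Of the 6 secreted inhibitors 2 were higher and 3 lower in lean eWAT, and Wif1 did not pass (-0.57 ± 0.47, adjusted p = 0.307). Sfrp1 averaged 50.7 ± 22.7 CPM in eWAT and 15.0 ± 3.84 CPM in iWAT (1.67 ± 0.14, adjusted p = 1.02e-13), and Dkk3, a divergent member of its family, 20.4 CPM in eWAT and 6.10 CPM in iWAT (1.80 ± 0.13). Dkk2 was at 1.57 CPM in eWAT and 12.0 CPM in iWAT (-2.88 ± 0.18). Sfrp4 was at 6.17 CPM in eWAT and 28.0 CPM in iWAT (-1.99), and Sfrp2 at 43.6 CPM in eWAT and 80.2 CPM in iWAT (-0.77 ± 0.17). Of the other R-spondins, Rspo3 was higher in eWAT (0.86) and Rspo2 lower (-1.05, adjusted p = 0.0448); the call of Rspo2 was lost without the mouse as a block (adjusted p = 0.437). Ctnnb1 differed by only 0.08 ± 0.02 (adjusted p = 0.00354). Axin2 averaged 79.8 ± 32.3 CPM in eWAT and 31.5 ± 11.4 CPM in iWAT (1.31 ± 0.07, adjusted p = 1.6e-19). All 8 mesothelium markers were also higher in lean eWAT, with sums of 174 to 520 CPM per mouse against 6.63 to 13.6 CPM in lean iWAT, as were 8 of 8 motile cilium and 6 of 8 duct markers. In lean iWAT 8 of 8 muscle, 9 of 10 T cell, 7 of 8 B cell, 7 of 10 macrophage and 7 of 10 progenitor and fibroblast markers were higher. Their part in the depot differences was not tested.

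**Figure D1:**
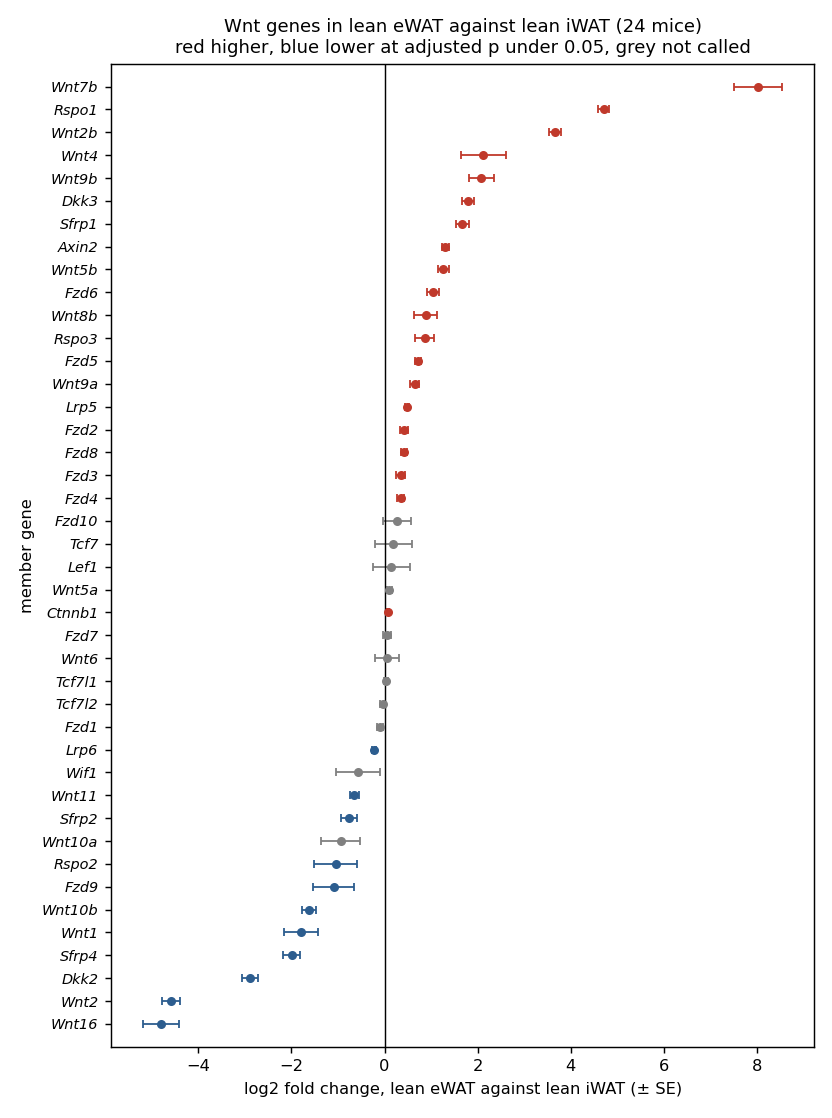
Log2 fold change of each member between lean eWAT and lean iWAT (horizontal axis, bars are standard errors, 24 lean mice), one row per gene. Rspo1 at 4.70 and Wnt2b at 3.66 lie far to the side of eWAT, and Wnt2 at -4.59 and Dkk2 at -2.88 far to that of iWAT, while Ctnnb1 sits at 0.08.

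In the eWAT of obese mice 3 of 40 members rose (13.1% of all 15368 genes did) and 1 fell (8.63% of all genes), so 10% of the members were called against 21.7% of all genes. The median log2 fold change was 0.04 over the members and 0.00 over all genes. The ligand Wnt11 (chr7:98835112-98855195, + strand, mm10) stood at 17.5, 11.9, 15.96, 11.9 and 13.3 CPM in the 5 obese mice, against 5.77, 7.64 and 10.0 CPM (lowest, median and highest) in their 6 lean controls. Every obese mouse lay above every lean mouse. In no comparison was it counted how many of all called genes had groups apart in this way. The means were 14.1 ± 2.52 CPM in obese and 7.69 ± 1.64 CPM in lean mice, a 1.86-fold difference (log2 fold change 0.89 ± 0.18, adjusted p = 0.00044). Fzd5, a Frizzled receptor (chr1:64730558-64737751, - strand), stood at 28.9, 49.0, 33.8, 45.2 and 30.2 CPM in obese mice, against 21.0, 22.1 and 27.4 CPM in lean mice (0.74 ± 0.16, adjusted p = 0.000935). The groups did not overlap here either. Sfrp4, a secreted Wnt-binding protein, stood at 13.7, 10.47, 13.5, 21.1 and 16.6 CPM in obese mice, against 3.87, 6.05 and 9.99 CPM in lean mice (1.19 ± 0.35, adjusted p = 0.0117), again without overlap. Without obese replicate 4, the highest, its adjusted p was 0.0601. Tcf7l2, the nuclear factor best known from human type 2 diabetes genetics, stood at 55.5, 44.9, 67.3, 41.1 and 37.6 CPM in obese mice, against 48.8, 67.2 and 85.9 CPM in lean mice (-0.44 ± 0.15, adjusted p = 0.026). These groups overlapped, and leaving out a mouse raised the adjusted p to at most 0.107. Without the libraries with duct signal the difference was -0.37 (adjusted p = 0.0965). In the same comparison 10 of 10 macrophage, 7 of 10 progenitor and fibroblast and 6 of 10 T cell markers were higher and 3 of 10 adipocyte markers lower; their part in these results was not tested.

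Wnt11 was the only member called at 3 times in a depot. After 2 weeks it stood at 8.41, 11.6 and 15.1 CPM in regression mice (lowest, median and highest of 6), against 5.78, 7.46 and 8.93 CPM in lean mice (0.71 ± 0.17, adjusted p = 0.00148). After 6 weeks it stood at 8.14, 10.8 and 15.8 CPM in regression mice, against 4.98, 8.13 and 9.76 CPM in lean mice (0.57 ± 0.17, adjusted p = 0.0355). After 12 weeks it stood at 8.87, 10.6 and 11.2 CPM in regression mice, against 6.76, 7.94 and 10.7 CPM in lean mice (0.30 ± 0.17, adjusted p = 0.214), which did not pass. The groups overlapped at all 3 regression times. The call at 6 weeks was lost in 4 of 10 alternative settings and without each of 6 of the 12 mice (adjusted p up to 0.169), and without the libraries with duct signal the difference was 0.49 (adjusted p = 0.102). The change of the Wnt11 difference between obesity and 12 weeks, -0.59 ± 0.25, did not pass either (adjusted p = 0.254). In iWAT the log2 fold changes of Wnt11 were 0.56, 0.28, 0.43 and 0.19 at the 4 times, with adjusted p-values of 0.0791, 0.412, 0.33 and 0.764, and no difference between the depots passed (adjusted p = 0.296 to 0.87).

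The sequence before the Wnt11 start is shown because this ligand was called at the most times, and that of Axin2 because this target gene had the largest fall among the members called in eWAT at 2 weeks. Both are 250 bases of RefSeq promoter sequence on the + strand of GRCm38.p6 (chr7:98834862-98835111 and chr11:108920099-108920348), and capitals mark the Tcf/Lef motif CTTTGAT or its reverse complement ATCAAAG.
Wnt11: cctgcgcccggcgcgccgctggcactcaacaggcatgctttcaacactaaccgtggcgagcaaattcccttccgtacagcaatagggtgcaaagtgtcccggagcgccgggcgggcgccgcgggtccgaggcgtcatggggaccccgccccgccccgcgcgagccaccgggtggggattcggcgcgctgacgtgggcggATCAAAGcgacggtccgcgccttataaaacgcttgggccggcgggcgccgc
Axin2: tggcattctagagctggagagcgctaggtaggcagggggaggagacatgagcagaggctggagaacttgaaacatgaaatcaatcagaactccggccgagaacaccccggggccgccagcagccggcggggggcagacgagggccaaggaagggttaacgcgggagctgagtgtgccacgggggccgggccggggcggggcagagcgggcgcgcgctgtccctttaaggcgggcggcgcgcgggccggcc
The Wnt11 window held ATCAAAG starting 51 bases before the gene start, and the Axin2 window held neither form. On both strands the motif occurred in 1053 of 32851 such windows (3.21%). Among members it occurred in 2 of 37 windows, those of Wnt11 and Wnt5b, 2 of the 28 genes with a window. Wnt11 has 2 windows, of which 1 had the motif, and that window was picked for display because it had the motif. A match of letters is a description and shows no bound factor.

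After 2 weeks of regression 2 of 40 members rose (17.1% of all genes did) and 5 fell (16.1% of all genes) in eWAT, 17.5% of the members against 33.1% of all genes. Axin2 (chr11:108920349-108950783, + strand) stood at 25.7, 35.7 and 47.01 CPM in the 6 regression mice, against 61.6, 113 and 131 CPM in the 6 lean mice. All regression mice lay below all lean mice, and the means of 36.6 ± 7.95 CPM in regression mice and 103 ± 29.6 CPM in lean mice gave a ratio of 0.369 (-1.44 ± 0.27, adjusted p = 7.26e-05). Axin2 was at 64.2, 44.8, 68.8, 37.4 and 68.4 CPM in obese mice, against 39.0, 50.2 and 133 CPM in lean mice (-0.37 ± 0.27, adjusted p = 0.368). After 6 weeks it was at 32.8, 37.4 and 46.9 CPM in regression mice, against 40.1, 57.1 and 73.2 CPM in lean mice (-0.53 ± 0.26, adjusted p = 0.201). After 12 weeks it was at 43.4, 68.3 and 139 CPM in regression mice, against 59.9, 79.6 and 130 CPM in lean mice (-0.19 ± 0.26, adjusted p = 0.626). The 4 lean groups themselves ranged widely, with Axin2 means of 73.5, 103, 56.2 and 86.3 CPM at the obesity time, 2, 6 and 12 weeks. The change of the Axin2 difference between obesity and 2 weeks was -1.07 ± 0.38 (adjusted p = 0.0844) and did not pass.

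The other members that moved in eWAT at 2 weeks overlapped between the groups. Fzd4 (chr7:89404355-89413134) stood at 207.5, 300 and 446.3 CPM in regression mice, against 343, 477.1 and 565 CPM in lean mice (-0.53 ± 0.15, adjusted p = 0.00453). Wnt5a (chr14:28504750-28527448), the prototype ligand of β-catenin-independent signalling, stood at 23.2, 43.2 and 54.0 CPM in regression mice, against 52.2, 57.5 and 67.6 CPM in lean mice (-0.44 ± 0.12, adjusted p = 0.00282). Neither was called in obesity. Fzd4 was at 521, 437.8, 453.9, 373 and 546 CPM in obese mice, against 312, 404.4 and 460 CPM in lean mice (0.26 ± 0.15, adjusted p = 0.242). Wnt5a was at 70.3, 68.7, 55.5, 60.1 and 65.8 CPM in obese mice, against 47.8, 52.4 and 65.1 CPM in lean mice (0.25 ± 0.12, adjusted p = 0.124). The change of the difference from lean between obesity and 2 weeks passed for both, with -0.78 ± 0.21 for Fzd4 (adjusted p = 0.0204) and -0.69 ± 0.17 for Wnt5a (adjusted p = 0.00852). Neither passed on the compared groups alone, and Fzd4 was at -0.67 without the libraries with duct signal (adjusted p = 0.109). They were 2 of 40 members called lower in that test, in which 5.34% of all genes were called, 1.81% higher and 3.53% lower. The co-receptor Lrp6 rose by a small amount, to 188 ± 19.8 CPM, against 154 ± 20.1 CPM in lean mice (0.32 ± 0.08, adjusted p = 0.00217). The ligand Wnt5b fell (-0.69 ± 0.25, adjusted p = 0.0291), as did Fzd3, a receptor known from planar cell polarity (-0.57 ± 0.20, adjusted p = 0.0278). Wnt5b lost its call without each of 3 of the 12 mice (adjusted p up to 0.14) and with voom (adjusted p = 0.137). Fzd3 lost its call without each of 5 mice (adjusted p up to 0.0918) and without the libraries with duct signal (adjusted p = 0.0681). At this time 10 of 10 macrophage, 6 of 10 progenitor and fibroblast and 4 of 10 T cell markers were higher in regression mice, while 4 of 8 duct markers and 1 progenitor and fibroblast marker were lower. Of the 10 adipocyte markers 4 were lower and 1 higher. The part of these cell types was not tested.

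After 6 weeks, besides Wnt11, only Wnt7b was called in eWAT, so 1 of 40 members was higher and 1 lower (5.11% and 2.07% of all genes, 7.18% in either direction). Wnt7b averaged 0.415 ± 0.287 CPM in regression mice and 6.04 ± 13.1 CPM in lean mice (-3.79 ± 1.04, adjusted p = 0.0217). The lean mean came from lean replicate 5 at 32.7 CPM, with a lean median of 0.867 CPM. That library also had the highest duct and vas deferens signal, at 5670 CPM when scaled over all libraries, and without it the log2 fold change was -0.73 (adjusted p = 0.667). After 12 weeks 2 of 40 members fell (4.1% of all genes) and 0 rose (10.1% of all genes, 14.2% in either direction). Lrp5 (chr19:3584828-3686564, - strand) stood at 72.1, 76.8 and 93.2 CPM in regression mice, against 91.3, 105 and 130 CPM in lean mice (-0.48 ± 0.10, adjusted p = 0.00119). It was called without each of the 12 mice in turn, and its adjusted p was 0.0609 with the signals of other tissues as terms. Fzd6 stood at 16.4, 18.2 and 54.4 CPM in regression mice, against 26.6, 46.0 and 59.4 CPM in lean mice (-0.93 ± 0.33, adjusted p = 0.0474). No correlation of Fzd6 with motile cilium markers was computed over the mice. Regression replicate 3 had both the 54.4 CPM of Fzd6 and a marker sum of 324 CPM, against marker sums of 6.03 to 10.5 CPM in the other regression mice and 46.6 to 354 CPM in lean mice. With the signals of other tissues as terms the difference of Fzd6 was 0.02 (adjusted p = 0.96), and without the libraries with duct signal it was -0.89 (adjusted p = 0.0728). In regression mice 9 of 10 macrophage and 6 of 10 progenitor and fibroblast markers were higher at 6 weeks, when 5 of 8 duct markers were lower. At 12 weeks 10 of 10 macrophage, 10 of 10 T cell, 4 of 10 progenitor and fibroblast and 3 of 8 B cell markers were higher. Their part in the results at these times was not tested.

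**Figure D2:**
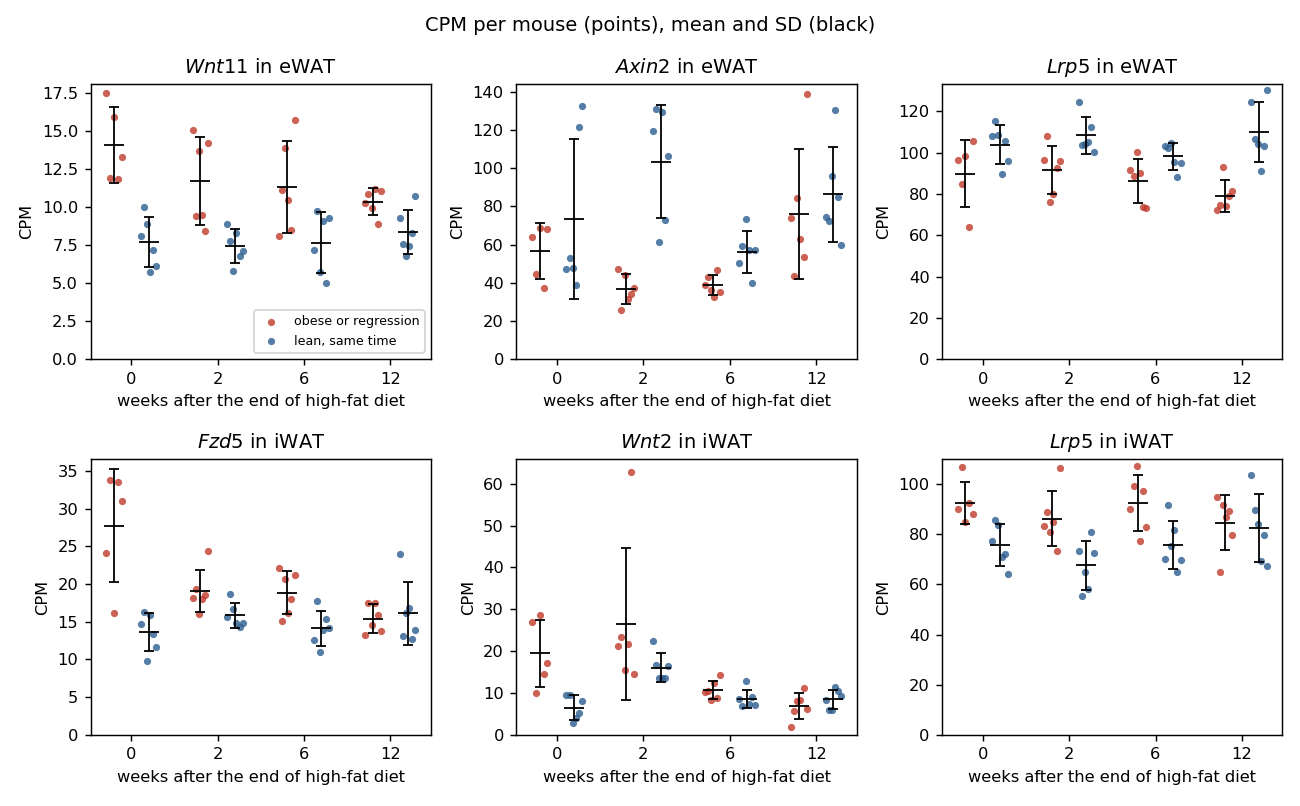
CPM per mouse (vertical axes) by weeks after the end of the high-fat diet (horizontal axes, 0 is the obesity time), with obese or regression mice in red left of lean mice in blue, for Wnt11, Axin2 and Lrp5 in eWAT and Fzd5, Wnt2 and Lrp5 in iWAT. Points are mice and bars are the mean ± SD. Wnt11 in eWAT starts at 11.9 to 17.5 CPM in obese mice above all lean mice and draws near them by 12 weeks, and Axin2 in eWAT lies below all lean mice at 2 weeks.

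In iWAT more members were called in obesity than at any later time. Of 41 members 11 rose (14.3% of all 14771 genes did) and 2 fell (14.1% of all genes), so 31.7% of the members were called against 28.4% of all genes, a share near the background. The median log2 fold change was 0.26 over the members and 0.03 over all genes. By role, 3 of 14 ligands, 4 of 12 receptors and 4 of 6 secreted inhibitors rose, 1 receptor and 1 of 5 nuclear proteins fell, and none of the 3 R-spondins was called.

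Among the ligands Wnt2 (chr6:17988940-18030585, - strand), a canonical ligand known from lung development, stood at 26.9, 10.04, 28.7, 14.4 and 17.2 CPM in obese mice, against 2.88, 6.595 and 9.56 CPM in lean mice. The groups did not overlap, and the difference was 2.98-fold (1.57 ± 0.33, adjusted p = 0.000421). Wnt10b, the ligand that blocks adipocyte formation in mouse cells, stood at 16.5, 16.02, 18.9, 19.5 and 17.97 CPM in obese mice, against 3.49, 10.8 and 14.0 CPM in lean mice (0.88 ± 0.28, adjusted p = 0.0176). Wnt9a (chr11:59306928-59333552), known from joint development, stood at 14.5, 16.7, 12.8, 15.1 and 13.4 CPM in obese mice, against 8.26, 10.1 and 11.5 CPM in lean mice (0.54 ± 0.17, adjusted p = 0.0166). For both, all obese mice lay above all lean mice. Wnt10b lost its call without lean replicate 3 or 4 (adjusted p up to 0.0539).

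Among the receptors Fzd5 stood at 24.2, 33.8, 16.2, 33.6 and 31.0 CPM in obese mice, against 9.86, 14.1 and 16.3 CPM in lean mice (1.02 ± 0.16, adjusted p = 7.03e-06). Only obese replicate 3 fell within the lean range. Fzd2 stood at 35.8, 32.4, 34.8, 43.5 and 24.3 CPM in obese mice, against 11.1, 18.9 and 25.7 CPM in lean mice (0.95 ± 0.18, adjusted p = 0.000107). Fzd4 stood at 329, 549 and 609 CPM (lowest, median and highest) in obese mice, against 221, 308 and 336 CPM in lean mice (0.77 ± 0.18, adjusted p = 0.00133). For Fzd2 and Fzd4, 1 obese mouse each lay within the lean range. Lrp5 rose to 92.5 ± 8.49 CPM, against 75.7 ± 8.25 CPM in lean mice (0.29 ± 0.11, adjusted p = 0.0444), and Fzd3 fell to 8.43 ± 1.44 CPM, against 11.9 ± 2.23 CPM in lean mice (-0.50 ± 0.18, adjusted p = 0.0381). Both of these calls were lost in several settings, Lrp5 in 4 of 11 and Fzd3 in 2 of 11.

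Among the secreted inhibitors Sfrp1 stood at 19.4, 19.3, 21.6, 18.9 and 20.7 CPM in obese mice, against 8.28, 11.9 and 15.9 CPM in lean mice (0.73 ± 0.20, adjusted p = 0.00463). These groups did not overlap. Sfrp4 stood at 75.96, 29.3, 109, 50.04 and 49.1 CPM in obese mice, against 6.67, 28.0 and 35.9 CPM in lean mice (1.45 ± 0.38, adjusted p = 0.00388). Sfrp2 stood at 131, 85.2, 157, 71.4 and 109 CPM in obese mice, against 19.3, 63.6 and 78.9 CPM in lean mice (1.02 ± 0.39, adjusted p = 0.0443). Dkk2, which blocks Lrp5 and Lrp6, rose to 14.5 ± 4.81 CPM, against 8.18 ± 3.06 CPM in lean mice (0.82 ± 0.31, adjusted p = 0.0422). Sfrp2 lost its call without each of 6 of the 11 mice and in 2 of 11 settings. Dkk2 lost its call without each of 6 mice and in 4 of 11 settings, among them the one without the libraries with B cell signal (adjusted p = 0.0535). Ligands and proteins that bind them rose in the same comparison.

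Tcf7l2 stood at 52.1, 60.5, 67.9, 42.1 and 64.3 CPM in obese iWAT, against 69.1, 73.8 and 82.9 CPM in lean iWAT (-0.38 ± 0.13, adjusted p = 0.0276). The groups did not overlap, but the call was lost without each of 4 of the 11 mice (adjusted p up to 0.12) and with voom (adjusted p = 0.0511). The eWAT value was -0.44, and the difference between the depots, -0.07 ± 0.16, did not pass (adjusted p = 0.935). Ctnnb1 was at 428.8, 529.9, 389.6, 506.9 and 452.1 CPM in obese mice, against 388.7, 408.9 and 459.9 CPM in lean mice (0.16 ± 0.07, adjusted p = 0.0784). Axin2 was at 28.5, 32.5, 28.7, 40.3 and 25.2 CPM in obese mice, against 17.3, 24.1 and 67.9 CPM in lean mice (-0.12 ± 0.26, adjusted p = 0.775). Neither passed. Rspo1 was at 2.09, 2.73, 3.85, 1.23 and 2.25 CPM in obese mice, against 0.910, 2.43 and 3.42 CPM in lean mice, and was called at no time.

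The progenitor and fibroblast markers moved with these members. Of the 10 listed, 7 were higher in obese iWAT and 0 lower, and their summed level was 3912, 2989, 4927, 3223 and 3381 CPM in the 5 obese mice, against 1380, 2260 and 2630 CPM (lowest, median and highest) in lean mice. Lean replicates 3 and 4, with sums of 1682 and 1379 CPM, were also the 2 lowest lean mice for 7 of the 11 members that rose (Wnt2, Wnt10b, Fzd2, Sfrp1, Sfrp2, Sfrp4 and Dkk2). In addition 9 of 10 macrophage markers were higher and 5 of 10 adipocyte markers lower in obese mice. The part of these cell types in the result was not tested.

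**Figure D3:**
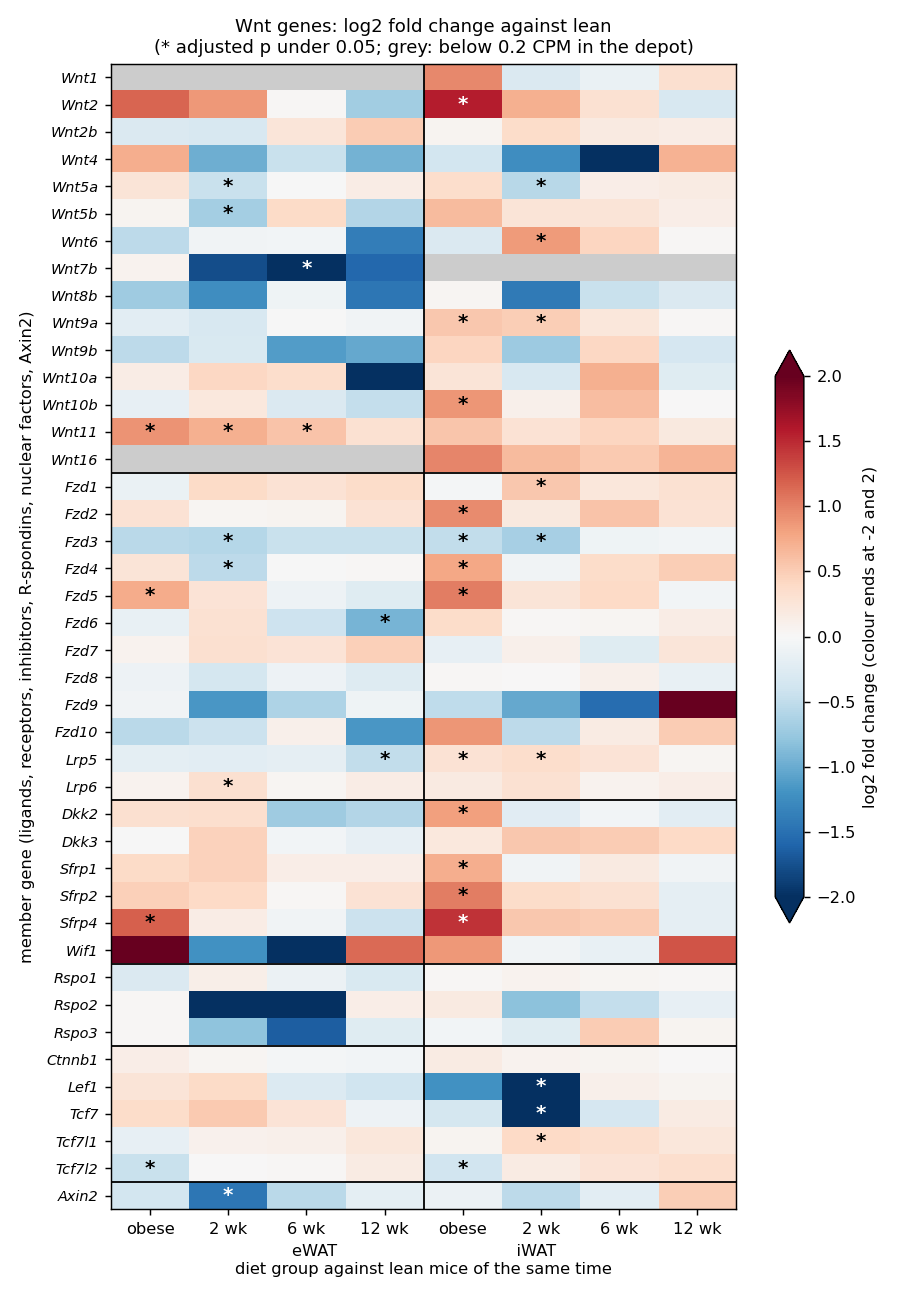
Log2 fold change of each member (rows, grouped by role) in obese and regression mice against lean mice of the same time, for 4 times in eWAT and 4 in iWAT (columns); colour gives the log2 fold change and asterisks mark an adjusted p under 0.05. The iWAT column of obesity holds 13 asterisks and the iWAT columns of 6 and 12 weeks hold 0.

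After 2 weeks of regression 5 of 41 members rose (8.92% of all genes did) and 4 fell (8.87% of all genes) in iWAT, 22% of the members against 17.8% of all genes. In all 9 the groups overlapped, a count not made over all called genes. Wnt5a stood at 17.2, 34.9 and 39.1 CPM in regression mice, against 37.4, 45.9 and 57.8 CPM in lean mice (-0.55 ± 0.15, adjusted p = 0.0103). In obesity it was at 56.5, 80.0, 41.2, 77.4 and 67.3 CPM in obese mice, against 40.8, 47.9 and 63.4 CPM in lean mice (0.35 ± 0.16, adjusted p = 0.0895). As in eWAT, the change of the Wnt5a difference between obesity and 2 weeks passed (-0.91 ± 0.22, adjusted p = 0.0141). That change kept its call in 9 of 11 settings and lost it on the compared groups alone and with voom (adjusted p up to 0.0621). Tcf7l1, a Tcf protein that mostly acts as a repressor, rose to 60.1 ± 8.40 CPM, against 45.4 ± 6.63 CPM in lean mice (0.40 ± 0.10, adjusted p = 0.00455). Wnt9a was at 10.3, 12.1 and 14.7 CPM in regression mice, against 5.27, 9.62 and 10.4 CPM in lean mice (0.49 ± 0.17, adjusted p = 0.0389). Lrp5 was at 73.4, 84.0 and 106 CPM in regression mice, against 55.4, 68.7 and 81.0 CPM in lean mice (0.35 ± 0.11, adjusted p = 0.021). Both had also been called higher in obesity. The ligand Wnt6 (0.84 ± 0.26, adjusted p = 0.0218) and the receptor Fzd1 (0.53 ± 0.18, adjusted p = 0.0312) rose, and Fzd3 fell again (-0.66 ± 0.18, adjusted p = 0.0091). Fitted on the compared groups alone, none of the 9 was called. Without the libraries with B cell signal the calls of Wnt9a (0.36, adjusted p = 0.175), Lrp5 (0.23, adjusted p = 0.126) and Fzd1 (0.50, adjusted p = 0.0723) were lost too. Regression replicate 5 stood apart at 462.5 CPM of Sfrp2 and 62.8 CPM of Wnt2, where the lean mice of that time reached 214 and 22.4 CPM, and had a progenitor and fibroblast marker sum of 5998 CPM.

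Tcf7 and Lef1, nuclear factors abundant in lymphocytes, were called lower at 2 weeks in iWAT. Tcf7 averaged 3.36 ± 1.87 CPM in regression mice and 38.9 ± 65.9 CPM in lean mice (-3.57 ± 1.06, adjusted p = 0.0175), and Lef1 0.756 ± 0.138 CPM in regression mice and 9.55 ± 16.4 CPM in lean mice (-3.67 ± 1.14, adjusted p = 0.022). The lean means came from replicates 2 and 4, at 166 and 55.9 CPM of Tcf7 and 41.3 and 13.3 CPM of Lef1, while the other 4 lean mice had 2.397 to 3.42 CPM of Tcf7 and 0.303 to 1.07 CPM of Lef1. Those same libraries had sums of the 8 B cell (lymph node) markers of 990 and 263 CPM. Without the libraries with B cell marker signal, a setting chosen after seeing the data, Tcf7 differed by -0.13 (adjusted p = 0.871) and Lef1 by 0.05 (adjusted p = 0.964). At 12 weeks the regression mouse with a B cell sum of 1208 CPM had 166 CPM of Tcf7 and 48.4 CPM of Lef1. Of the 8 B cell markers 0 were called at 2 weeks, and of the 10 T cell markers 5 were lower. In addition 2 of 10 macrophage and 2 of 10 adipocyte markers were higher and 1 of 8 muscle markers lower, and their part was not tested.

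**Figure D4:**
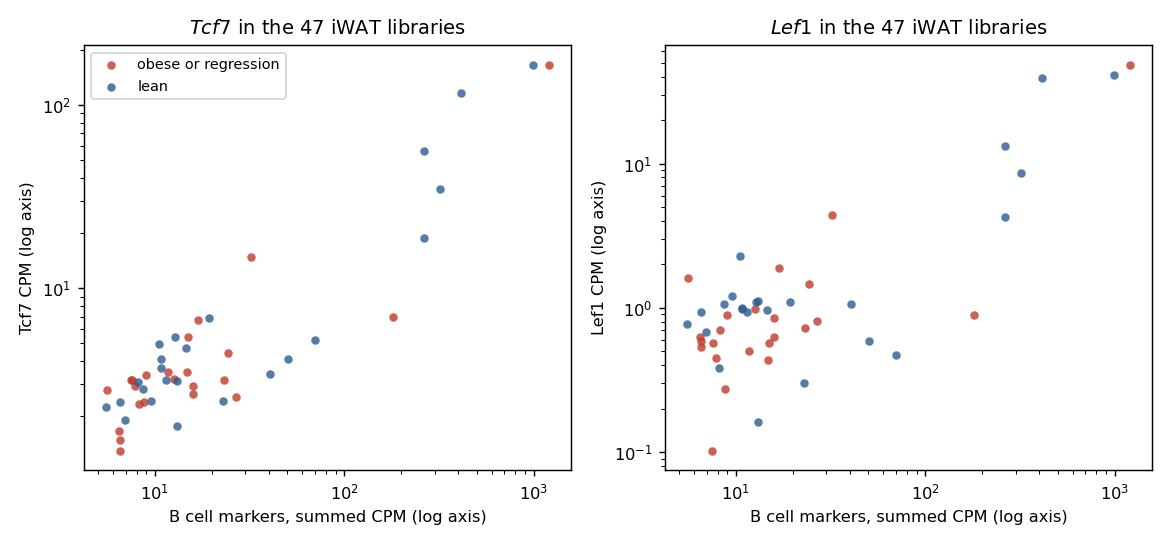
Tcf7 and Lef1 (CPM, vertical axes, log scale) against the summed level of 8 B cell markers (CPM, horizontal axis, log scale) in the 47 iWAT libraries, coloured by diet. The libraries with the highest B cell sums, such as the B cell (lymph node) sum of 1208 CPM, also hold the highest Tcf7 and Lef1.

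No member was called in iWAT after 6 weeks (0 of 41, against 1% of all genes, 0.562% higher and 0.44% lower) or 12 weeks (0 of 41, against 0.0271% of all genes, 0.0203% higher and 0.00677% lower). At an unadjusted p under 0.05 there were 9 members at 6 weeks and 4 at 12 weeks, and DESeq2 called 2 and 0. For 3 members the difference from lean mice changed between obesity and 12 weeks. The change between obesity and 12 weeks was -1.08 ± 0.22 for Fzd5 (adjusted p = 0.00235), -1.89 ± 0.46 for Wnt2 (adjusted p = 0.0116) and 0.71 ± 0.18 for Tcf7l2 (adjusted p = 0.0169), so 1 of 41 members was called higher and 2 lower in that test (of all genes 2.08% and 2.34%, 4.41% in all). With voom and runs of mouse numbers as a random block, Fzd5 alone was called, and Wnt2 and Tcf7l2 each had an adjusted p of 0.0795. Wnt2 was also lost without the libraries with B cell signal (-1.67, adjusted p = 0.0639). At 12 weeks Fzd5 was at 13.2, 15.2 and 17.6 CPM in regression mice, against 12.7, 15.1 and 24.03 CPM in lean mice. Wnt2 was at 1.89, 7.05 and 11.1 CPM in regression mice, against 5.95, 8.72 and 11.4 CPM in lean mice. Both ranges overlapped those of the lean mice. Tcf7l2 was at 42.6, 74.01 and 84.2 CPM in regression mice, against 45.2, 55.3 and 63.7 CPM in lean mice (0.33 ± 0.13, adjusted p = 0.225). By 2 weeks the change of Fzd5 in iWAT was -0.76 ± 0.22 (adjusted p = 0.0398), 1 of 2 members called lower there with Wnt5a (of all genes 1.96% were lower and 1.54% higher, 3.5% in all). That call of Fzd5 was lost in 6 of 11 settings (adjusted p up to 0.127) and without each of 11 of the 23 mice (adjusted p up to 0.0966). In eWAT, Fzd5 was the 1 member of 40 called for the change between obesity and 12 weeks (-0.98 ± 0.22, adjusted p = 0.00909), a test in which 2.1% of all genes were called, 0.651% higher and 1.45% lower.

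Age was read from the lean mice, those of the 12-week time set against those of the obesity time. No member was called, 0 of 40 in eWAT and 0 of 41 in iWAT (of all genes 0.104% in eWAT, 0.039% higher and 0.0651% lower, and 0.454% in iWAT, 0.291% higher and 0.162% lower). At an unadjusted p under 0.05 there were 6 and 7 members, a count not made over all genes. DESeq2 called 0 of 25 members in eWAT (141 of 10871 genes) and 0 of 34 in iWAT (167 of 13334 genes). Tcf7l2 had the values nearest to a call among those described above, -0.32 ± 0.14 in eWAT (adjusted p = 0.335) and -0.42 ± 0.13 in iWAT (adjusted p = 0.134).

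Whether the depots differed in their response was tested within mice over both depots. In obesity 0 members were higher and 1 of 42 lower (1.12% of all genes called, 0.539% higher and 0.584% lower), and that was Lrp5, which stood at 96.5, 85.0, 98.4, 63.7 and 105 CPM in obese eWAT, against 89.6, 107 and 115 CPM in lean eWAT (-0.19 ± 0.10, adjusted p = 0.186). In iWAT it stood at 89.9, 107, 85.0, 92.3 and 88.2 CPM in obese mice, against 64.1, 74.7 and 85.7 CPM in lean mice. The difference between the depots was -0.52 ± 0.13 (adjusted p = 0.0353), and it was lost without the mouse as a block (adjusted p = 0.188) and without each of 8 of the 11 mice. After 2 weeks 3 members were lower and 0 higher in eWAT relative to iWAT (8.92% of all genes called, 5.7% lower and 3.22% higher). Lrp5 was lower again (-0.61 ± 0.13, adjusted p = 0.00257), at 76.2, 94.1 and 108 CPM in regression eWAT, against 100, 105 and 125 CPM in lean eWAT. Axin2 differed by -0.90 ± 0.21 (adjusted p = 0.00537), with -1.44 in eWAT and -0.52 ± 0.25 in iWAT (adjusted p = 0.146), and lost its call without the mouse as a block (adjusted p = 0.11). In iWAT Axin2 was at 12.7, 26.4 and 29.2 CPM in regression mice, against 23.8, 33.9 and 42.7 CPM in lean mice. Wnt9a differed by -0.91 ± 0.25 (adjusted p = 0.0173), and in eWAT it was at 6.50, 12.9 and 18.9 CPM in regression mice, against 14.2, 16.8 and 17.8 CPM in lean mice (-0.33 ± 0.19, adjusted p = 0.188). In the same difference at 2 weeks 6 of 10 macrophage and 4 of 10 T cell markers were higher and 5 of 10 adipocyte markers lower in eWAT relative to iWAT, and their part was not tested. The estimates for Lrp5 at 6 and 12 weeks were -0.48 ± 0.13 (adjusted p = 0.0598) and -0.51 ± 0.13 (adjusted p = 0.0645), and no member passed at either time (of all genes 0.513% at 6 weeks, 0.231% higher and 0.282% lower, and 0.0449% at 12 weeks, 0.0321% higher and 0.0128% lower). At an unadjusted p under 0.05 there were 7 members at each, a count not made over all genes. DESeq2 called 1 of 35 members at 6 weeks (342 of 13772 genes) and 3 of 41 at 12 weeks (639 of 14980 genes).

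Over all groups, the Axin2 levels of a mouse in eWAT and iWAT were correlated, but not in every group. After the group mean was subtracted from log2 CPM, Pearson's r between the depots was 0.66 over 47 mice and Spearman's rho 0.58 (permutation of mice within groups with 100000 resamples, p = 2e-04 and 5e-04). Axin2 had the highest r of the 39 members measured in both depots and was chosen after these values were seen, so the p-values are not adjusted for that choice. Without the 2 mice farthest from the median in eWAT r was 0.55 over 45 mice. Of the 47 mice 33 lay on the same side of their group mean in both depots and 14 on opposite sides. All 5 obese mice were among those on opposite sides. Over the other 42 mice r was 0.75, but a group whose mice all disagreed was dropped there, so r had to rise. The mouse numbers fall into 2 series, and r was 0.74 within the lower series (n = 23) and 0.51 within the higher (n = 24). Over all 14554 genes measured in both depots 400 (2.75%) had an r at or above that of Axin2. The median r was 0.19 over the members and 0.21 over all genes. The widest spread was seen in the lean mice of the obesity time, where all 6 lay on the same side in both depots. The r without these lean mice was not computed. Lean replicates 5 and 6 had 122 and 133 CPM of Axin2 in eWAT and 48.2 and 67.9 CPM in iWAT, while the other 4 lean mice lay at 39.0 to 52.8 CPM in eWAT and 17.3 to 26.2 CPM in iWAT.

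**Figure D5:**
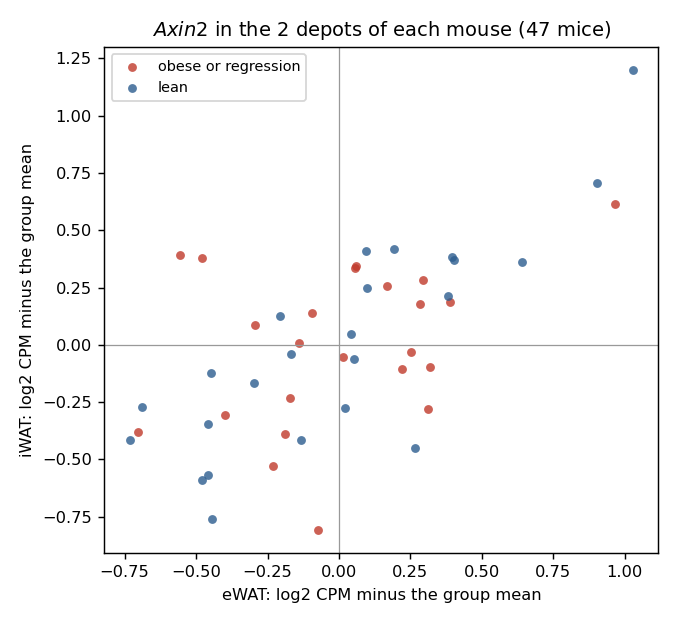
Axin2 in each of 47 mice as the deviation of log2 CPM from the mean of its group in eWAT (horizontal axis) and iWAT (vertical axis), coloured by diet. Mice above their group mean in eWAT are mostly above it in iWAT (r = 0.66), except that all 5 obese mice lie on opposite sides in the 2 depots.

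Of the other genes of the pathway, counted on lists chosen with earlier results of these data known, the known targets are given first. In obese iWAT 4 of 13 listed transcriptional targets rose and 1 fell, with a list median of 0.49 against 0.03 over all genes, of which 14.3% rose and 14.1% fell. They were Wisp2, also called Ccn5 (1.49 ± 0.36, adjusted p = 0.00152), the feedback inhibitor Nkd1 (1.43 ± 0.35, adjusted p = 0.00206), the adhesion receptor Cd44 (1.40) and the cell cycle gene Ccnd1 (0.85), while Znrf3, which removes Frizzleds from the membrane, fell (-0.28). Among 17 secretion and membrane partners 4 rose and 1 fell, with the R-spondin receptor Lgr4 (0.63) and the glypican Gpc3 (0.89) among those higher. Among 24 cytoplasmic transducers 7 rose and 3 fell, with Amer1 (0.87), Tnks (0.57), Gsk3b (0.39) and Apc (0.28) higher and Gsk3a (-0.41) lower. Apc and Gsk3b, which rose, and Gsk3a, which fell, are known parts of the machinery that breaks β-catenin down. That breakdown was not measured, and Ctnnb1 and Axin2 were not called in obese iWAT.

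In obese eWAT 2 of 15 targets rose, Cd44 (2.33) and Nkd1 (0.64), and 1 fell, Apcdd1, a membrane-bound Wnt inhibitor (-0.58), where 13.1% of all genes rose and 8.63% fell. After 2 weeks 3 targets rose in eWAT, Cd44 (2.90), Fosl1 (2.02) and Myc (0.95), and Apcdd1 fell (-0.92 ± 0.21, adjusted p = 0.000678), where 17.1% of all genes rose and 16.1% fell. Apcdd1 was also lower in eWAT relative to iWAT at that time (-1.14 ± 0.22, adjusted p = 0.00129). All 10 macrophage markers were higher in the same mice, and their part in these values was not tested. In iWAT the 4 lists held 0 called genes at 6 weeks and 1 at 12 weeks, the planar polarity gene Prickle1 (0.65). In lean mice 9 of 15 targets were higher and 2 lower in eWAT than in iWAT (27.7% and 30.5% of all genes), with Nkd1 at 1.27 and Apcdd1 at 0.72 among those higher beside Axin2.

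Over the 4 times, 13 of 40 members were called at least once in eWAT and 19 of 41 in iWAT, 25 of 42 in either depot and 7 of 39 in both (Fzd3, Fzd4, Fzd5, Lrp5, Sfrp4, Tcf7l2 and Wnt5a). Of all genes 46.8% were called at least once in eWAT, 37.5% in iWAT, 58.2% in either depot and 25.2% in both. In eWAT 12 of the 13 were called at 1 time, and in iWAT 16 of the 19. The 17 members never called were Ctnnb1, the R-spondins Rspo1, Rspo2 and Rspo3, the receptors Fzd7, Fzd8, Fzd9 and Fzd10, the inhibitors Dkk3 and Wif1, and the ligands Wnt1, Wnt2b, Wnt4, Wnt8b, Wnt9b, Wnt10a and Wnt16. Their log2 fold changes ran from -3.21 (Wif1 in eWAT at 6 weeks, adjusted p = 0.0649) to 3.14 (Wif1 in eWAT in obesity, adjusted p = 0.0599). Rspo1 in eWAT, the most abundant R-spondin, was at 47.2, 52.05, 71.3, 30.04 and 77.5 CPM in obese mice, against 41.1, 65.3 and 112 CPM in lean mice. Ctnnb1 in eWAT was at 465.5, 512.4, 403.7, 459.9 and 471.5 CPM in obese mice, against a mean of 428.7 ± 30.2 CPM in lean mice (SD, n = 6), and its group means in either depot stayed between 413.5 and 472.5 CPM.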

How the data were processed

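Per the labels, poly(A) RNA of 94 libraries (47 mice, both depots) was sequenced as paired-end reads on a NovaSeq. The counts the authors deposited are whole numbers for each gene symbol and were not normalized. STAR 2.4.1c, DESeq2 1.38.3, R 4.2.2 and mm10 are named, per the submitters' processing notes. The counting program, annotation and strand setting were not stated there. The authors' deposited result tables were not used.

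Each depot was fitted over its 47 libraries with edgeR 4.0.16 (R 4.3.3), TMM scaling, a minimum mean of 0.2 CPM (15368 genes in eWAT, 14771 in iWAT) and the quasi-likelihood F-test, two-sided. Depot differences came from a fit of both depots that held a term for each mouse (94 libraries, 15585 genes). Standard errors were derived from the fold change and F. Printed CPM share 1 TMM scaling over all libraries, and logarithms of CPM had a prior count of 2. The fit was tested on simulated data.

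Members and gene lists were chosen with earlier results of these data known. All called members are named; values per mouse are given by rule for members called at 3 times, in opposite directions or between depots and for the highest member per role, and further ones were chosen after they were seen. No replicate pair agreed within sampling noise (lowest chi-square per degree of freedom 3.63 in eWAT and 7.11 in iWAT). Positions come from GENCODE M21 and promoters from RefSeq. Alternatives were DESeq2 1.42.0, its size factors, other filters, other terms or blocks (voom in limma 3.58.1), the compared groups alone, each mouse left out, and, chosen after seeing the data, leaving out libraries with signal of another tissue or of muscle.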

Additional observations from a re-analysis of the deposited data

Results flagged for a closer look

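Within a group of 5 or 6 mice, the highest mouse stood far from the others for 6 of the 74 sets of called values examined, and chance flags about 1 in 20 groups. In eWAT these were Fzd5 at 27.4 CPM in lean replicate 5 of the obesity time, Wnt7b at 32.7 CPM in lean replicate 5 of 6 weeks, and Fzd6 at 54.4 CPM in regression replicate 3 of 12 weeks. In iWAT they were Lef1 at 41.3 CPM and Tcf7 at 166 CPM in lean replicate 2 of 2 weeks, and Tcf7 at 6.98 CPM in regression replicate 4 of 2 weeks.

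The difference from lean mice changed between obesity and regression by a tested amount for 5 members. In eWAT the change was -0.78 for Fzd4 and -0.69 for Wnt5a by 2 weeks, and -0.98 for Fzd5 by 12 weeks. In iWAT it was -0.76 for Fzd5 and -0.91 for Wnt5a by 2 weeks, and by 12 weeks -1.08 for Fzd5, 0.71 for Tcf7l2 and -1.89 for Wnt2. Between the depots (eWAT minus iWAT) the response differed for Lrp5 in obesity, -0.52, and at 2 weeks for Lrp5 by -0.61, Axin2 by -0.90 and Wnt9a by -0.91.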

How the results depend on the processing

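Of the called members' values under the alternatives, with each refit without a mouse counted in, 1813 kept direction and call, 203 lost the call and 2 reversed. The reversed were Fzd6 in eWAT at 12 weeks, to 0.019 with other-tissue signals as terms, and Lef1 in iWAT at 2 weeks, to 0.052 without libraries with signal of another tissue. Of the 45 calls within a depot, 25 were kept on the compared groups alone and 26 with voom. Without libraries with other-tissue signal 31 were kept, with those signals as terms 36, with no filter 39 and with the mouse number series as a term 45. DESeq2 and its size factors each kept 80 of 80 calls over all comparisons, and edgeR's default filter 78 of 79. Counts of called members moved as follows. With DESeq2 they were 4 in eWAT at 6 weeks (2 in edgeR), 4 in eWAT at 12 weeks (2), 2 for the eWAT change to 12 weeks (1), 2 in iWAT at 6 weeks (0), 5 for the iWAT change to 2 weeks (2), and 1 and 3 for the depot difference at 6 and 12 weeks (0 and 0). On the compared groups alone they were 1 and 4 in eWAT at 6 and 12 weeks, 0 for the eWAT change to 2 weeks, 0 (of 9) in iWAT at 2 weeks, 1 in iWAT at 6 weeks and 0 for the iWAT change to 2 weeks. With no filter they were 1 in eWAT at 12 weeks and 1 for the iWAT change to 2 weeks. With other-tissue signals as terms they were 0 and 0 in eWAT at 6 and 12 weeks (808 and 290 of all genes), 2 for the eWAT change to 12 weeks (385) and 5 in iWAT at 2 weeks (2817). With voom they were 0 and 6 in eWAT at 6 and 12 weeks, 2 for the eWAT change to 12 weeks, 8 (of 13) in obese iWAT, 2 in iWAT at 2 weeks, and 0 and 1 for the iWAT change to 2 and 12 weeks. Of all genes, in that order, voom called 29, 2702, 254, 3257, 1248, 152 and 195. Without libraries with other-tissue signal they were 0 and 1 in eWAT at 6 and 12 weeks (796 and 1930 of all genes), 1 for the eWAT change to 2 weeks (322) and 4 in iWAT at 2 weeks (2432). The cause of these moves was not tested.

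Replicate numbers did not pair the mice of different groups (correlations of deviations -0.551 to 0.598). The replicate block gave 1 called member in eWAT at 6 weeks (835 of all genes) and 4 for the iWAT change to 2 weeks (643), and kept 41 of 45 calls. Leaving out the mouse as a block gave 0 for the depot difference in obesity (39 of all genes) and kept 32 of 35.

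Leaving out each mouse in turn gave 2 to 5 called members in obese eWAT, 5 to 8, 0 to 4 and 1 to 9 in eWAT at 2, 6 and 12 weeks, 8 to 14 in obese iWAT, 4 to 10, 0 to 1 and 0 to 0 in iWAT at 2, 6 and 12 weeks, 2 to 3 and 1 to 2 for the eWAT changes, 1 to 6 and 3 to 4 for the iWAT changes, 0 to 0 with age in both depots, 29 to 33 between lean depots, and 0 to 1 and 2 to 4 for the depot difference in obesity and at 2 weeks; it was not run for that difference at 6 and 12 weeks, and the depot fits kept the dispersion of all mice. In the refits without a mouse, calls over all genes ran from 1614 to 3543 in obese eWAT. In eWAT at 2, 6 and 12 weeks they ran from 4458 to 5406, 70 to 1665 and 1271 to 4334. Calls over all genes ran from 3365 to 4282 in obese iWAT. In iWAT at 2, 6 and 12 weeks they ran from 1765 to 2803, 52 to 319 and 2 to 14. Rspo2 and Wnt10a in both depots, Fzd9 and Wnt2 in eWAT and Wnt9b in iWAT did not meet edgeR's default filter on low counts.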
